A study of Arabidopsis thaliana with 12 samples.

Results

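NLR genes encode the intracellular immune receptors of plants, proteins with a nucleotide-binding domain (NB-ARC) and, in most cases, leucine-rich repeats. Their transcripts were examined in Arabidopsis thaliana of the Col-0 ecotype with and without a mutation in DCL1, the Dicer-like ribonuclease of microRNA production. A gene was taken as an NLR gene where its deposited annotation contained "Disease resistance protein", "NB-ARC" or "NBS-LRR" in any case of letters, which gave 144 of the 24730 genes in the expression table. The groups were dcl1 mutants and Col-0 wild type (WT), both untreated and with an age label of 20 days, with 3 biological replicates of each. The samples are labelled as leaf, while the protocol speaks of seedlings, and the dcl1 allele is not named. For each replicate, poly(A) RNA was fragmented and sequenced directly (input) and after immunoprecipitation with an antibody against N6-methyladenosine (m6A), a methyl mark on adenosines within messenger RNA. This makes 12 libraries, of which the 6 input libraries carry per-library values here.

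NLR proteins recognise pathogen effectors inside the cell, either directly or by watching over the host proteins that effectors attack, and active receptors set off the local cell death known as the hypersensitive response. The main classes are told apart by their N-terminal domain. Receptors with a TIR domain make nucleotide signals that act through EDS1 with PAD4 or SAG101 and through helper NLRs, whereas receptors with a coiled coil (CC), such as ZAR1, can assemble into channels in the plasma membrane. Plants hold NLR transcript levels in check, since raised levels can cause autoimmunity and slow growth, and microRNAs are one of the known controls: miR472 acts on transcripts of the CC class, and miR825-5p on transcripts of the TIR class.

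Of the 144 genes, 98 were annotated as TIR class, 84 of them as TIR-NBS-LRR and 14 without mention of leucine-rich repeats. A further 24 were annotated as CC-NBS-LRR, and for 22 the annotation named neither class. Known CC receptors such as RPS2 and RPM1 are among these 22, so "class not given" is a statement about the annotation alone. Chromosomes 1 and 5 carried 50 of the genes each, chromosome 4 carried 26, chromosome 3 carried 14 and chromosome 2 carried 4. The annotation gave ADP binding for 137 of them, signal transduction for 91, NAD(P)+ nucleosidase activity for 22 and defense response for 17. All 144 loci were found in the RefSeq table, where 22 had a symbol of their own. The other genes are named by locus.

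The targeted gene was low in every mutant library. DCL1 had 0.604, 0.406 and 0.632 FPKM (fragments scaled by transcript length and by library total, so levels are per length) in dcl1, against 5.08, 4.53 and 6.0 FPKM in WT. The leaf label was checked with 4 photosynthesis genes of leaf mesophyll, all abundant in both genotypes. RBCS1A, the small subunit of Rubisco, lay between 15242 and 15377 FPKM in dcl1 and between 15631 and 19428 FPKM in WT. Of the other 3, CAB1 was higher in dcl1 (log2 change 0.36), and LHCB2.1 (-0.23) and CA1 (-0.34) were lower, by limma at an adjusted p under 0.05. Their part in the results was not tested. The root markers IRT1, CASP1 and PLT2 were at or below 0.422 FPKM in all 6 input libraries. Correlations of the tested NLR genes between libraries (Pearson's r of log2(FPKM + 1)) ran from 0.972 to 0.990 within a genotype and from 0.819 to 0.921 between genotypes, with the genes as points. In bulk tissue, fewer cells of a type and less RNA per cell cannot be told apart.

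NLR transcripts were present at low levels in both genotypes. The median over the 144 genes was 2.42 FPKM in dcl1 and 1.96 FPKM in WT, against 5.23 and 4.85 FPKM for dcl1 and WT over all genes. The CC-NBS-LRR genes had the higher medians, 4.19 FPKM in dcl1 and 4.05 FPKM in WT, and the TIR genes had 2.11 FPKM in dcl1 and 1.72 FPKM in WT. The genes of unnamed class had medians of 1.99 FPKM in dcl1 and 1.94 FPKM in WT. RLM3, a TIR-type gene needed for resistance to necrotrophic fungi, was the most abundant of all 144, and AT3G04210 (TIR class), AT1G59124, SNC1 and AT1G58807 followed. SNC1, a TIR receptor whose gain-of-function form causes autoimmunity, had 21.1, 22.9 and 26.0 FPKM in dcl1 and 24.7, 21.4 and 25.2 FPKM in WT, so the genotypes overlapped.

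The tested NLR genes separated the genotypes completely about as often as all tested genes did, and few changed by much. Averaged over both genotypes, 94 of the 144 genes reached 1 FPKM (65.3%, against 72.5% of all genes), and these were tested with limma on log2(FPKM + 1), with p-values adjusted over all 17925 genes tested. At an adjusted p under 0.05, 28 NLR genes differed, 22 higher and 6 lower in dcl1. That is 29.8% of those tested, where 30.6% of all tested genes differed, so the number of changed NLR genes was near the background. By direction, 23.4% of the tested NLR genes were higher in dcl1, against 17.8% of all tested genes, and 6.38% were lower, against 12.8%. With the libraries brought to one common distribution (quantile normalisation), the split was 17 higher (18.1%, against 13.9% of all tested genes) and 9 lower (9.57%, against 20.6%). With 1 library left out at a time, 14 to 27 NLR genes passed, with the fewest without dcl1 replicate 3 or WT replicate 2 (14 each), then WT replicate 1 (15) and dcl1 replicate 2 (17). By size, 6 NLR genes passed the test with at least a 2-fold change of FPKM + 1, 5 of them higher in dcl1. This is 6.38%, against a background of 5.4%. By the ratio of mean FPKM, AT1G12290 (3.33) and ADR1 (2.12) also rose more than 2-fold, with log2 changes of 0.99 and 0.92 on the tested scale. There was no overlap between dcl1 and WT libraries for 47 of the 94 genes (50.0%, against 48.4% of all tested genes), with dcl1 above WT in 34 and below it in 13.

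The typical change was small. The median log2 change (dcl1 minus WT, on the log2(FPKM + 1) scale, as are all such changes below) was 0.10 over the 94 NLR genes and 0.03 over all tested genes, and after quantile normalisation these medians were -0.003 and -0.05. For 78 of the 94 genes the change lay within 0.5 log2 units of zero. The summed FPKM of all 144 genes was 675, 746 and 788 in the dcl1 libraries and 644, 596 and 662 in the WT libraries. The 5 genes that rose at least 2-fold in FPKM + 1 summed to 59.9, 97.9 and 115 FPKM in dcl1. In WT they summed to 14.6, 16.3 and 20.9 FPKM, as a description of genes picked by their change.

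**Figure D1:**
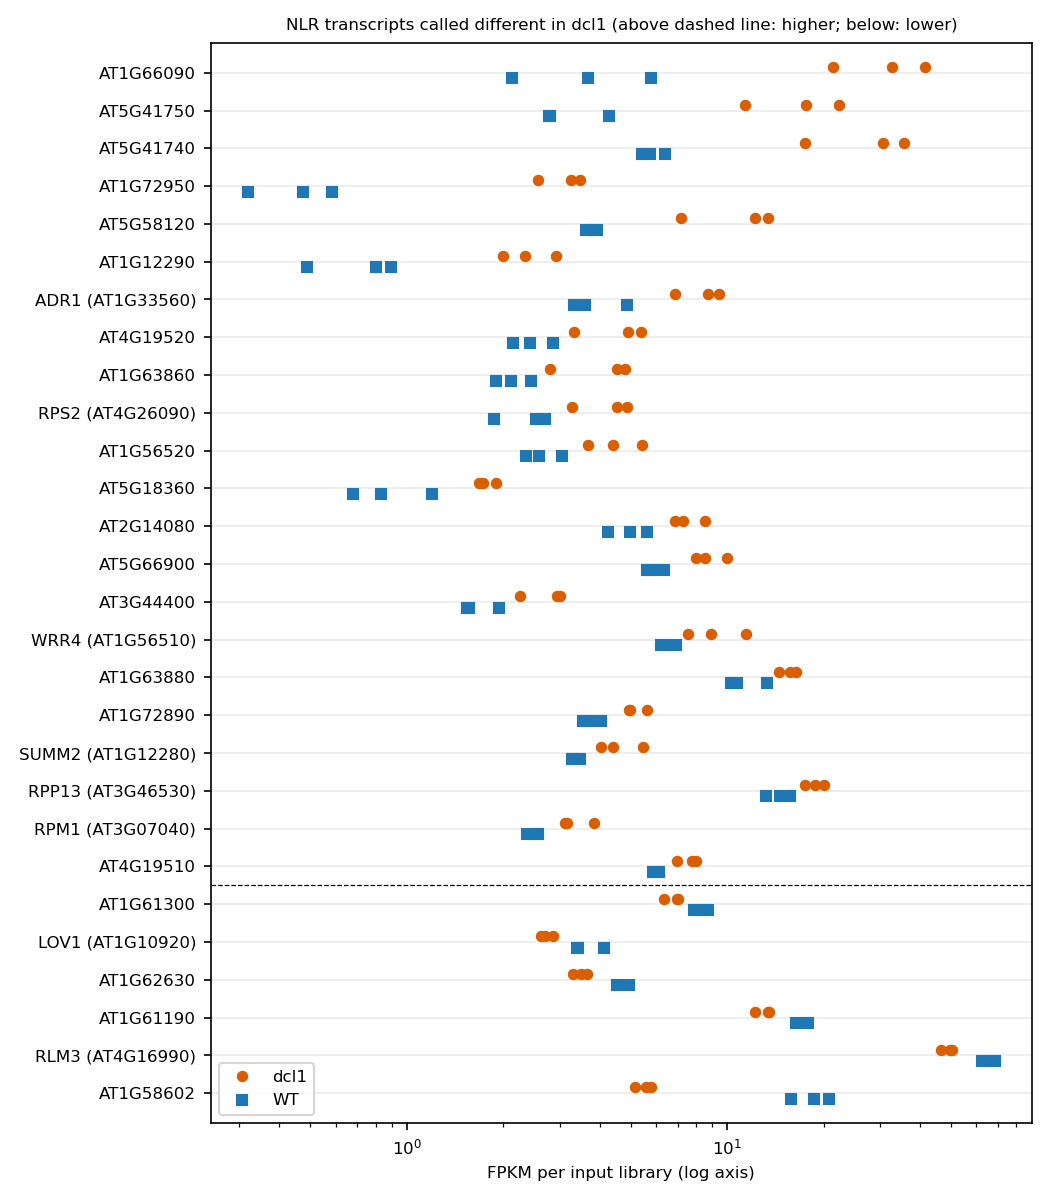
FPKM of the 28 NLR genes that passed the test, one point per input library (circles dcl1, squares WT, 3 libraries each, log axis), in order of the change. The 22 genes above the dashed line were higher and the 6 below it lower in dcl1. For all 28 the circles and squares do not overlap, which also held for 5457 of the 5480 genes that passed in the whole series.

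The TIR class held the largest rises. Of 60 tested TIR genes, 15 were higher and 1 was lower in dcl1, with a median change of 0.16. This is 26.7% of them, against 30.6% of all tested genes. The TIR count fell to 8 without WT replicate 1, WT replicate 2 or dcl1 replicate 3. Among the 51 TIR-NBS-LRR genes tested, 12 were higher and 0 were lower. At an unadjusted limma p under 0.05, 19 of the 51 were higher and 1, AT5G46260, was lower, and the authors' deposited table marked 4 TIR-NBS-LRR genes as higher and AT5G45000 as lower. Among the 9 TIR genes without leucine-rich repeats in their annotation, 3 were higher and 1, RLM3, was lower. Of 20 tested CC-NBS-LRR genes, 3 were higher and 1 lower (20.0%, median 0.05), and after quantile normalisation 3 were higher and 3 lower (median -0.03). Of 14 tested genes of unnamed class, 4 were higher and 4 lower (57.1%, median -0.08), and after quantile normalisation 1 was higher and 5 were lower (median -0.18). Differences between the classes were not tested.

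**Figure D2:**
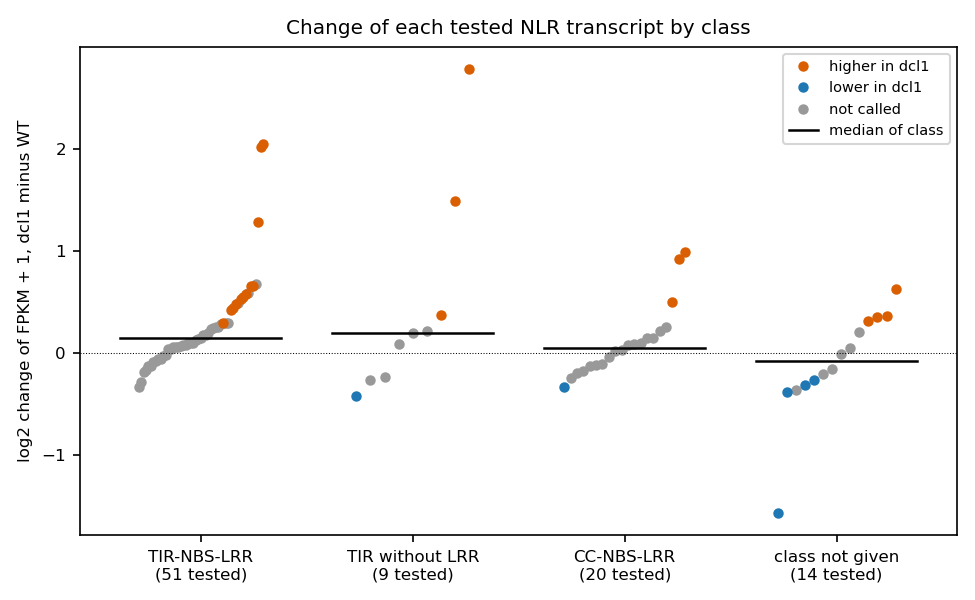
Log2 change (dcl1 minus WT, FPKM + 1) of each of the 94 tested NLR genes by annotated class, with a bar at the class median and coloured points for genes that passed the test. The 5 points above 1 all belong to the TIR classes, and the lowest point, at -1.57, is AT1G58602 of unnamed class.

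Among the tested NLR genes, AT1G66090 showed the largest log2 change. This gene of the TIR-NBS class lies on chromosome 1 (24602146 to 24604763, TAIR10, plus strand). It had 21.4, 32.8 and 41.6 FPKM in dcl1, against 2.12, 3.68 and 5.80 FPKM in WT. The lowest dcl1 library stood well above the highest WT library, and the genotype means were 31.9 ± 10.2 FPKM in dcl1 and 3.87 ± 1.84 FPKM in WT (SD, n = 3 each), a ratio of 8.25. The log2 change was 2.78 ± 0.32 (SE, limma adjusted p = 0.0011).

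A pair of TIR-NBS-LRR genes that lie side by side on chromosome 5 rose by nearly the same factor. AT5G41740 (16688626 to 16693119) and AT5G41750 (16693909 to 16698943) are on the plus strand with 789 bases between them. AT5G41740 had 17.5, 30.6 and 35.6 FPKM in dcl1 and 5.75, 5.42 and 6.40 FPKM in WT. AT5G41750 had 11.3, 17.6 and 22.4 FPKM in dcl1 and 2.80, 2.79 and 4.27 FPKM in WT. For both genes the groups were far apart, and in both the dcl1 libraries kept the same order, with replicate 1 lowest and replicate 3 highest. Their log2 changes were 2.02 ± 0.23 and 2.05 ± 0.24 (SE, limma adjusted p = 0.0012 for each). How fragments that match more than one NLR gene were shared out is not given in the sources used here, and this touches the many NLR genes with close copies.

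AT1G72950, a short TIR-NBS gene on chromosome 1 (27444585 to 27445980), was above 1 FPKM in every dcl1 library and below it in every WT library. It had 2.57, 3.47 and 3.25 FPKM in dcl1, against 0.319, 0.586 and 0.474 FPKM in WT. The ratio of the means was 6.74, whereas the log2 change of 1.49 ± 0.13 (SE, limma adjusted p = 0.00039) is smaller than that ratio because 1 FPKM was added before the log. The TIR-NBS-LRR gene AT5G58120 on chromosome 5 (23517492 to 23521067) had 7.19, 13.4 and 12.3 FPKM in dcl1, against 3.62, 3.82 and 3.93 FPKM in WT. Its dcl1 libraries were spread widely, all above the narrow WT group, and the log2 change was 1.28 ± 0.20 (SE, limma adjusted p = 0.0038).

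Smaller rises in the TIR class included AT4G19520 (0.66), AT1G63860 (0.66), AT1G56520 (0.58), AT5G18360 (0.55), AT2G14080 (0.52), AT3G44400 (0.48), AT1G63880 (0.42), AT1G72890 (0.37) and AT4G19510 (0.29), given as log2 changes. WRR4, a TIR receptor for white rust, rose by 0.44. It had 7.55, 11.4 and 8.90 FPKM in dcl1, against 6.92, 6.39 and 6.20 FPKM in WT, so the lowest dcl1 library lay just above the highest WT library. Of these 10 genes, AT2G14080 alone kept its call whichever library was left out. AT1G63880 was the most abundant of these genes, with 15.6 ± 0.923 FPKM in dcl1 and 11.4 ± 1.62 FPKM in WT (SD, n = 3 each). The rises were not of one size in the 3 mutant libraries: replicate 1 of dcl1 was the lowest of the mutants for 16 of the 22 NLR genes that rose (72.7%, against 47.0% of all genes called higher). Library by library, the median shift of the 94 genes from the WT mean was 0.05, 0.12 and 0.19 in dcl1 and 0.02, -0.06 and 0.05 in WT.

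All 3 genes of the ADR1 family, helper NLRs that pass on the signal of other receptors, were higher in dcl1. ADR1, the founding member of the ADR1 helper family and annotated as CC-NBS-LRR, lies on chromosome 1 (12168768 to 12172005). It had 6.88, 9.45 and 8.70 FPKM in dcl1, against 3.60, 3.33 and 4.87 FPKM in WT, without overlap. Its log2 change was 0.92 ± 0.15 (SE, limma adjusted p = 0.0044). Its paralogs ADR1-L1 and ADR1-L2 are annotated in words that the choice of genes did not cover, so they are not among the 144. ADR1-L2 had 15.4, 21.3 and 19.6 FPKM in dcl1 and 7.91, 7.70 and 9.97 FPKM in WT (log2 change 1.05, limma adjusted p = 0.0020). ADR1-L1 had 16.0, 18.2 and 19.5 FPKM in dcl1 and 11.4, 9.68 and 13.9 FPKM in WT (log2 change 0.59, limma adjusted p = 0.015). In each of the 3 genes the genotypes did not overlap. The adjusted p of ADR1-L1 was 0.051 without replicate 1 of WT.

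ZAR1, a CC receptor that forms a calcium channel when active, likewise fell outside the annotation words and was higher in dcl1. It had 43.9, 53.5 and 56.6 FPKM in dcl1, against 28.4, 26.3 and 32.0 FPKM in WT (log2 change 0.81 ± 0.11, SE, limma adjusted p = 0.0025), and the genotypes did not overlap. On chromosome 5 lie AT5G66900 and AT5G66910, both annotated as CC-NBS-LRR and separated by 443 bases. AT5G66900 had 8.01, 8.52 and 9.99 FPKM in dcl1, against 6.37, 5.85 and 5.63 FPKM in WT, with a log2 change of 0.50 ± 0.10 (SE, limma adjusted p = 0.0090). Its neighbour AT5G66910 had 4.58, 4.22 and 4.43 FPKM in dcl1 and 3.93, 3.19 and 5.51 FPKM in WT. Here the WT libraries lay on both sides of the dcl1 libraries, with a log2 change of 0.08 that did not pass the test (limma adjusted p = 0.73).

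Some of the best studied sensor NLRs rose by a modest amount. RPS2 and RPM1 both guard RIN4, a membrane-bound regulator that bacterial effectors modify. RPS2 on chromosome 4 (13224338 to 13227872) had 3.27, 4.52 and 4.86 FPKM in dcl1, against 2.71, 1.87 and 2.54 FPKM in WT, a log2 change of 0.63 ± 0.15 (SE, limma adjusted p = 0.021). RPM1 had 3.11, 3.85 and 3.17 FPKM in dcl1 and 2.37, 2.57 and 2.57 FPKM in WT, a log2 change of 0.32 (limma adjusted p = 0.047). In both genes each dcl1 library lay above each WT library. The span of RPS2 contains an antisense locus, AT4G26095, which averaged 1.16 FPKM in dcl1 and 1.24 FPKM in WT, and whether the counting used strand is not given in the sources used here. RPP13, a downy mildew receptor, rose by 0.36, and so did SUMM2, which monitors a MAP kinase cascade. Leaving out single libraries ended the call in 3 of 6 cases for RPS2 and RPP13, in 5 for SUMM2 and in all 6 for RPM1.

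Many other known receptors did not pass the test. RPS4 and RRS1, TIR receptors that work as a pair and lie head to head with 180 bases between them, had log2 changes of 0.08 and -0.13. RPS4 averaged 4.29 FPKM in dcl1 and 3.98 FPKM in WT, and RRS1 averaged 2.42 FPKM in dcl1 and 2.74 FPKM in WT. The downy mildew receptors RPP1 (-0.13), RPP4 (0.25) and RPP8 (-0.11) lay on both sides of zero, as did RPS6 (0.25), LAZ5 (-0.06) and CSA1 (0.04). DAR4, the head-to-head partner of CSA1, had 4.71, 4.36 and 4.62 FPKM in dcl1, against 5.54, 5.35 and 6.60 FPKM in WT. Its genotypes did not overlap, and its log2 change of -0.29 just missed the threshold (limma adjusted p = 0.050). It passed as lower under quantile normalisation (0.0073), median-ratio scaling (0.020) and a pseudocount of 0.1 FPKM (0.0496). In a list of 32 NLR genes known by function, 26 belonged to the 144. Of the 29 tested, 10 were higher and 1 was lower in dcl1 (37.9%, against the background of 30.6%), with a median change of 0.15. RLM1, which confers resistance to blackleg, was at or below 0.0549 FPKM in all 6 libraries and was not tested.

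The falls were fewer, and 1 was large. AT1G58602, an LRR and NB-ARC gene of unnamed class on chromosome 1 (21746354 to 21765705, plus strand), had 5.59, 5.80 and 5.17 FPKM in dcl1, against 18.6, 15.8 and 20.8 FPKM in WT. The dcl1 libraries were close together and all far below WT, with means of 5.52 ± 0.319 FPKM in dcl1 and 18.4 ± 2.51 FPKM in WT (SD, n = 3 each). Its log2 change was -1.57 ± 0.11 (SE, limma adjusted p = 0.00016), and the ratio of WT over dcl1 was 3.33. The annotated span of this gene covers 19352 bases, against a median of 3954.5 bases over the 144 genes. It contains another locus on the same strand, AT1G58561.1, which averaged 0.221 FPKM in dcl1 and 1.2 FPKM in WT and whose part in the result was not tested.

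RLM3 fell by 0.42 on the log2 scale. It had 50.4, 46.5 and 49.6 FPKM in dcl1, against 68.4, 62.6 and 65.9 FPKM in WT, without overlap (SE 0.07, limma adjusted p = 0.0039). The other falls were smaller. AT1G61190 had 13.6, 13.4 and 12.2 FPKM in dcl1, against 17.8, 17.9 and 16.4 FPKM in WT (log2 change -0.38, limma adjusted p = 0.0090). AT1G62630 (-0.34), LOV1 (-0.32) and AT1G61300 (-0.26) completed the set. LOV1, a CC-type gene that makes plants sensitive to the fungal toxin victorin, had 2.86, 2.70 and 2.62 FPKM in dcl1, against 4.13, 3.40 and 3.43 FPKM in WT. Its call was lost whichever library was left out, that of AT1G61300 in 5 of 6 cases and that of AT1G62630 in 3. Of the 6 genes that fell, 4 were of unnamed class, and all but RLM3 lie on chromosome 1. That chromosome holds 36 of the 94 tested genes, among them AT1G66090, ADR1 and others that rose.

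The authors' deposited table of the expression comparison marked 11 of the 144 genes as significant, 9 higher and 2 lower in dcl1. This is 7.64%, against 6.75% of all genes, so it was again near the background. Of the 11, 8 also passed the test above with the same direction, and the other 3 (AT1G58410, AT5G41550 and AT5G45000) were below 1 FPKM on average and not tested. AT5G41550, a TIR-NBS-LRR gene, had 0.418, 0.784 and 1.30 FPKM in dcl1, against 0.0502, 0.0901 and 0.145 FPKM in WT. The authors' deposited table gives AT5G41550 a log2 change of 3.13, above the 3.04 given there for AT1G66090. AT1G58410 (CC-NBS-LRR) had 0.659, 0.609 and 0.757 FPKM in dcl1, against 0.197, 0.114 and 0.164 FPKM in WT. In both genes every dcl1 library was above every WT library. AT5G45000 had 0.768, 0.284 and 0.420 FPKM in dcl1 and 1.31, 0.645 and 1.75 FPKM in WT, where the genotypes overlapped.

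The 50 untested genes were low in both genotypes, with means over the 6 libraries of at most 0.986 FPKM. Their median over the 6 libraries was 0.124 FPKM, 22 of them averaged under 0.1 FPKM, and 17 were listed at 0 in at least 1 library. The genotypes did not overlap in 11 of them, with dcl1 above WT in 8 and below it in 3 (22.0%, against 21.3% of all untested genes). When all 24730 genes were fitted without the filter, 4 of these 50 passed as higher (AT5G41550, AT1G58410, AT1G15890 and AT1G72870) and 0 as lower. At an unadjusted limma p under 0.05, 6 of the 50 were higher (12.0%, against 11.1% of all untested genes) and 2 were lower (4.0%, against 8.17%). In that fit 21.6% of all genes passed.

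NLR genes sit in clusters of tandem copies, and in these data neighbours did not always move together. With members no more than 50000 bases apart taken as one cluster, the 144 genes fell into 75 groups, 45 of them single genes. The other 30 groups held 99 genes, and 8 groups held at least 4. No group contained both a gene that rose and a gene that fell, by the limma calls, but most groups held too few genes that passed for this to be possible. Across the 37 pairs of neighbouring tested genes within a cluster, 22 had log2 changes of the same sign, with a median difference of 0.21. Changes were positive for 63 of the 94 tested NLR genes, so many pairs would share a sign whether or not neighbours move together. Over the 37 pairs the changes correlated with a Pearson's r of 0.53 and a Spearman's rho of 0.35. These are descriptions, since pairs share genes and libraries. Pearson's r includes the extreme pair AT5G41740 and AT5G41750 (2.02 and 2.05), and its value without that pair was not computed.

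The cluster on chromosome 4 that holds RPP4, SNC1 and RPP5 has 8 genes, 7 of them tested. RLM3 at its end was the only gene there to pass the test, and it was lower. RPP5, a downy mildew receptor, averaged 20.7 FPKM in dcl1 and 16.6 FPKM in WT (log2 change 0.29, limma adjusted p = 0.074), and RPP4 averaged 16.8 FPKM in dcl1 and 13.7 FPKM in WT. On chromosome 1, the cluster between 21690962 and 21832708 also has 8 genes, and AT1G58602 was the only one of its 5 tested genes to pass. The next genes along, AT1G58807 (0.22), AT1G58848 (-0.20), AT1G59124 (0.15) and AT1G59218 (-0.13), did not, and their levels lay between 6.81 and 25.0 FPKM as dcl1 means. In the TIR-NBS-LRR cluster of AT1G63730 to AT1G63880, AT1G63860 and AT1G63880 rose, and AT1G63750 averaged 3.62 FPKM in dcl1 and 1.87 FPKM in WT (log2 change 0.68, limma adjusted p = 0.056). Further along, in the cluster of AT1G72840 to AT1G72950, the only 2 genes above the 1 FPKM filter, AT1G72890 and AT1G72950, both rose. AT1G72950 averaged 0.460 FPKM in WT and passed the filter only through its dcl1 mean of 3.10 FPKM. The 2 rises therefore do not describe the cluster. The 3 clusters on chromosome 5 with at least 4 genes, among them those of RPS4 with RRS1 and of RPS6, held no gene that passed.

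**Figure D3:**
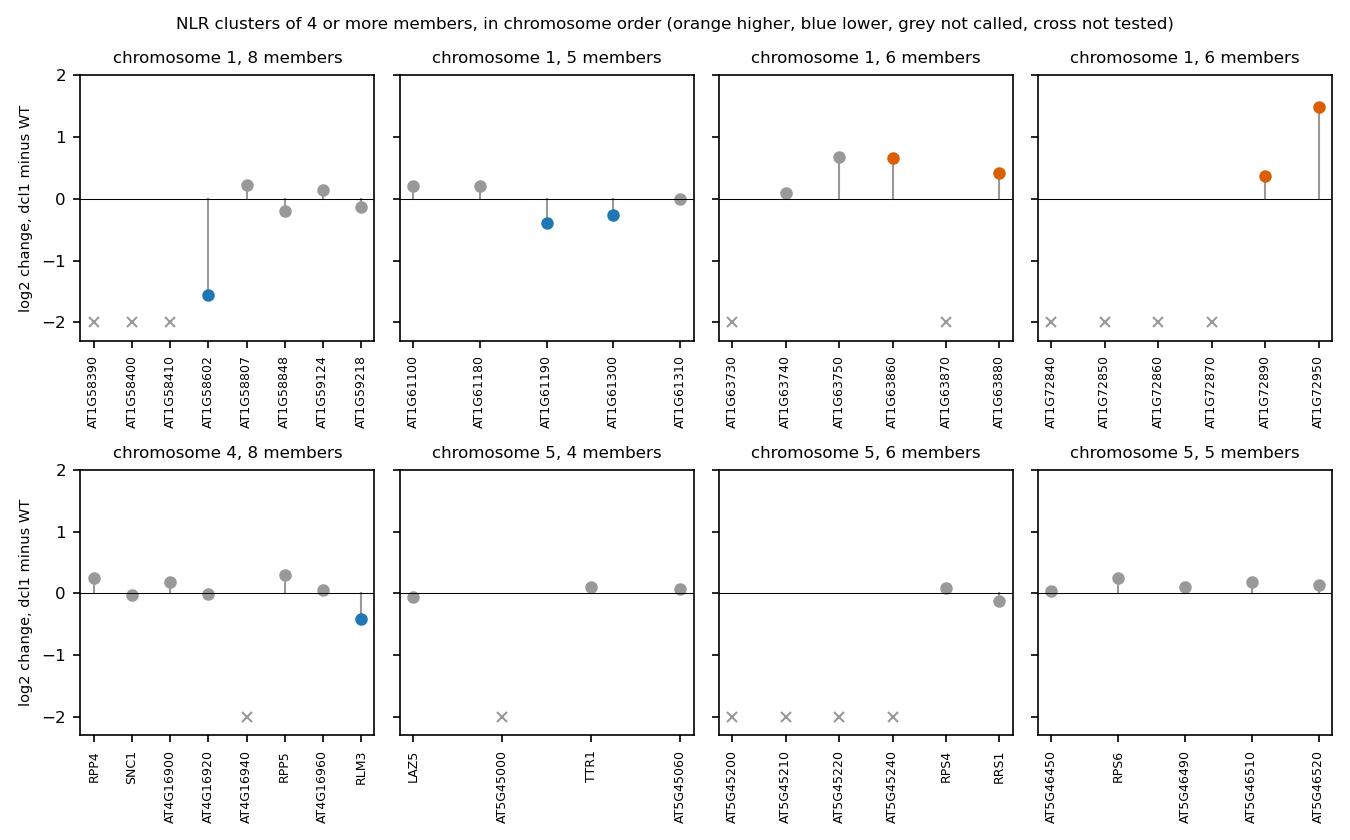
Log2 change (dcl1 minus WT, FPKM + 1) of each gene in the 8 clusters with 4 or more NLR genes, in chromosome order, with coloured points for genes that passed the test. Crosses at the foot of a panel mark genes that were not tested and carry no value. AT1G58602 (-1.57) and AT1G72950 (1.49) stand out from their neighbours, and the chromosome 5 panels show no coloured point.

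The miRNA miR472 is known to act on CC-type NLR transcripts, and 3 of its listed targets are described here. AT1G12290 rose: it had 2.92, 2.00 and 2.33 FPKM in dcl1, against 0.891, 0.486 and 0.800 FPKM in WT, without overlap. Its log2 change was 0.99 ± 0.15 (SE, limma adjusted p = 0.0031). The other 2 did not pass the test. AT5G43740 averaged 4.49 FPKM in dcl1 and 4.17 FPKM in WT (0.09), and AT5G43730 averaged 0.957 FPKM in dcl1 and 1.13 FPKM in WT (-0.12).

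AT1G12290 shares its position with the miRNA gene. Its annotated span on chromosome 1 (4178359 to 4182593, minus strand) contains the MIR472 locus (4182132 to 4182299) on the same strand. MIR472 itself was listed at 0.0474, 0.0312 and 0.0411 FPKM in dcl1 and 0.0191, 0.0581 and 0.0535 FPKM in WT, low in both genotypes. Whether fragments of the miRNA's precursor were counted for AT1G12290 was not tested. SUMM2 lies 799 bases from AT1G12290 and rose by 0.36. The MIR825 locus had 9.90, 4.26 and 6.81 FPKM in dcl1 and 3.11, 4.82 and 3.09 FPKM in WT. The genotypes overlapped there, and its log2 change of 0.73 did not pass the test (limma adjusted p = 0.073).

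Genes that work with NLR proteins were read from the same fit. Of 19 such genes, all tested, 6 were higher in dcl1 and 0 lower (31.6%, against the background of 30.6%), with a median change of 0.26. At an unadjusted limma p under 0.05 the counts were 9 higher and 0 lower, and after quantile normalisation they were 5 higher and 1 lower. The largest change was that of AT1G14200, a RING/U-box protein annotated with ubiquitin ligase activity. It had 93.4, 85.6 and 126 FPKM in dcl1, against 11.9, 6.90 and 8.15 FPKM in WT, far apart, with a log2 change of 3.37 ± 0.20 (SE, limma adjusted p = 9.8e-05). SAG101, a partner of EDS1 in TIR signalling, had 10.8, 12.5 and 13.4 FPKM in dcl1, against 5.65, 5.63 and 7.06 FPKM in WT (log2 change 0.90, limma adjusted p = 0.0016). RIN4, the protein guarded by RPS2 and RPM1, had 37.8, 34.4 and 38.2 FPKM in dcl1, against 21.5, 22.6 and 27.4 FPKM in WT (log2 change 0.61, limma adjusted p = 0.0048). In these genes no dcl1 library overlapped a WT library.

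SGT1A, a co-chaperone in NLR folding, rose by 0.54, TPR1, a co-repressor that binds SNC1, by 0.43, and CPR1, an F-box protein that marks SNC1 and RPS2 for breakdown, by 0.28. The CPR1 call was a close one (limma adjusted p = 0.049) and was lost without any one of 5 of the libraries. SGT1B, the main SGT1 copy for several receptors, had a change of -0.08. EDS1 had 11.2, 11.5 and 10.1 FPKM in dcl1 and 12.4, 11.0 and 15.8 FPKM in WT, overlapping (-0.22, limma adjusted p = 0.22). PAD4 had 7.61, 9.84 and 11.2 FPKM in dcl1 and 6.51, 5.10 and 8.23 FPKM in WT (0.48, limma adjusted p = 0.082), and NDR1, which RPS2 needs, had the same change (0.48, limma adjusted p = 0.095). So among the 3 proteins of the EDS1 module, the SAG101 transcript passed the test and those of EDS1 and PAD4 did not.

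**Figure D4:**
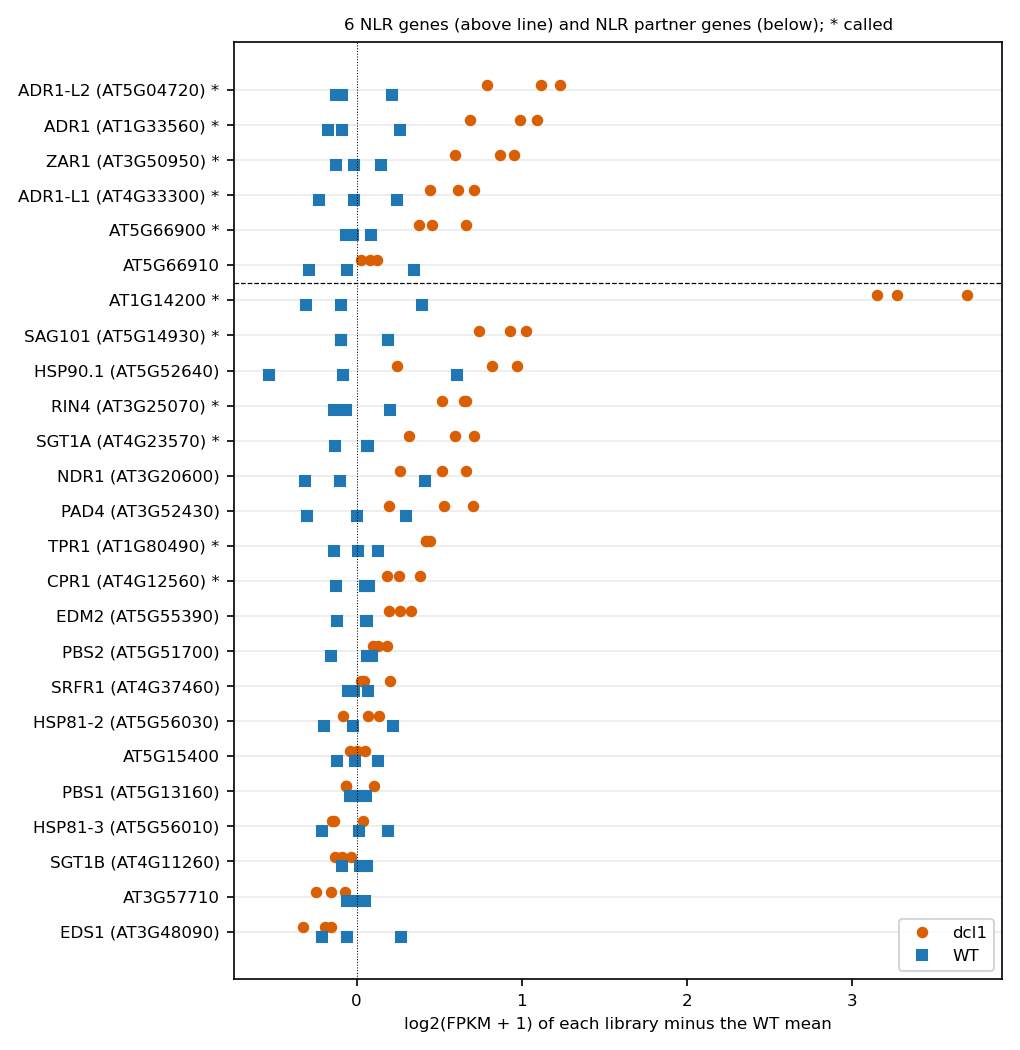
Difference of each input library from the WT mean on the log2(FPKM + 1) scale, for 6 NLR genes (above the dashed line) and the 19 partner genes (below it), circles for dcl1 and squares for WT, with an asterisk for genes that passed the test. AT1G14200 lies furthest to the right, and EDS1, at the foot, has dcl1 libraries that overlap those of WT.

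Salicylic acid is the hormone of NLR-triggered defence, and 2 of its 8 tested response genes were higher in dcl1 (25.0%, against the background of 30.6%). CBP60G, a transcription factor of salicylic acid synthesis, had 19.8, 25.6 and 27.2 FPKM in dcl1, against 4.62, 3.70 and 7.66 FPKM in WT (log2 change 2.03, limma adjusted p = 0.0010). PBS3, an enzyme of that synthesis, had 9.53, 11.2 and 9.63 FPKM in dcl1, against 3.67, 2.11 and 4.98 FPKM in WT (log2 change 1.33, limma adjusted p = 0.0048). The groups were separate in both. PR1, the classic output gene, had 72.9, 60.7 and 106 FPKM in dcl1 and 124, 57.2 and 155 FPKM in WT, with overlap and a wide spread among WT plants. PR5 had 26.5, 22.5 and 18.2 FPKM in dcl1 and 42.7, 24.2 and 61.6 FPKM in WT (log2 change -0.83, limma adjusted p = 0.078). EDS5, the transporter of salicylic acid precursors, had 2.30, 2.23 and 2.09 FPKM in dcl1, against 3.78, 2.51 and 4.06 FPKM in WT, without overlap (log2 change -0.45, limma adjusted p = 0.051). It passed as lower under both other scalings and without WT replicate 2. Of the 10 genes listed, FMO1 and ALD1 were below the 1 FPKM filter and not tested. ALD1 had 0.403, 0.174 and 0.101 FPKM in dcl1, against 1.15, 0.888 and 3.06 FPKM in WT, without overlap. In the fit without the filter, ALD1 passed as lower (log2 change -1.06, limma adjusted p = 0.045) and FMO1 did not pass. Replicate 3 of WT was the highest for PR1, PR5 and BGL2, and it was the highest WT library for 13 of the 22 NLR genes that rose (59.1%, against 67.0% of all genes called higher). Without it, 27 NLR genes passed, 22 higher and 5 lower.

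The m6A comparison came from the authors' deposited table of 3117 differential peaks, in which each peak has a log2 change of dcl1 over WT. Of these, 18 overlapped an NLR gene, 1 on each of 18 genes. The peak was lower in dcl1 on 15 of them and higher on 3 (83.3% lower, against 39.7% of all peaks in the table). The authors' assignment gave NLR genes a partly different set of 18 peaks, with 12 lower and 6 higher. For the 18 overlapping peaks, the authors' annotation placed 13 in the 3' UTR and 5 in an exon, where 93.2% of all differential peaks are in the 3' UTR. An FDR under 0.05 is given for 12 of these overlapping peaks in the authors' deposited table. That table lists differing peaks alone, so the share of NLR transcripts that carry m6A was not analysed here.

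The peak with the largest fall was on AT5G18360, a TIR-NBS-LRR gene. It spans 6080079 to 6080257 on chromosome 5, and the authors' deposited table gives it a log2 change of -1.60 (p = 0.00069). The transcript rose by 0.55, with means of 1.77 ± 0.118 FPKM in dcl1 and 0.902 ± 0.267 FPKM in WT (SD, n = 3 each). On AT1G58848, a CC-NBS-LRR gene of the large chromosome 1 cluster, the authors' deposited table gives a 3' UTR peak (21796443 to 21797050) a log2 change of -1.0, and the transcript had a change of -0.20 that did not pass (limma adjusted p = 0.070). Further lower peaks were those on AT3G44400 (-0.77), AT1G56520 (-0.74), AT3G44630 (-0.66), RPS2 (-0.63) and LAZ5 (-0.59), values again from the authors' deposited table. The FDR given there was 0.13 for AT3G44400 and 0.085 for AT1G56520, and under 0.05 for AT3G44630, RPS2 and LAZ5. The RPS2 peak, 151 bases at the 3' end of the gene (13227722 to 13227872), also lies within CK1 on the other strand. The 3 higher peaks were on RPP1 (0.36), LOV1 (0.35) and RLM3 (0.21).

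By overlap, peak and transcript ran in opposite directions for all 8 NLR genes that had both a peak and a changed transcript. The 6 such genes that rose (AT5G18360, AT3G44400, AT1G56520, RPS2, AT5G66900 and AT4G19510) all had a lower peak, and the 2 that fell (RLM3 and LOV1) had a higher one. Of these peaks, those on AT3G44400 (FDR 0.13), LOV1 (0.089), AT1G56520 (0.085) and AT4G19510 (0.051) missed an FDR of 0.05 in the authors' deposited table. Opposite signs were the common pattern of the series: of all 1177 overlaps of a peak with a gene of changed transcript, 923 (78.4%) were opposite. For peaks that lay on a single gene, it was 7 of 7 on NLR genes and 667 of 820 (81.3%) on all genes. Over the 18 genes, the log2 changes of peak (authors' deposited table) and transcript correlated at a Pearson's r of -0.57 (Spearman's rho -0.49). For single-gene peaks, the values were -0.59 and -0.51 over 16 NLR genes, and -0.47 and -0.41 over all 2516 such peaks. These are descriptions with the genes as points, drawn from the same plants. Whether the authors' peak value was taken relative to input is not given in the sources used here, so a change of the mark per transcript cannot be told apart from one of the transcript's share in the precipitate.

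**Figure D5:**
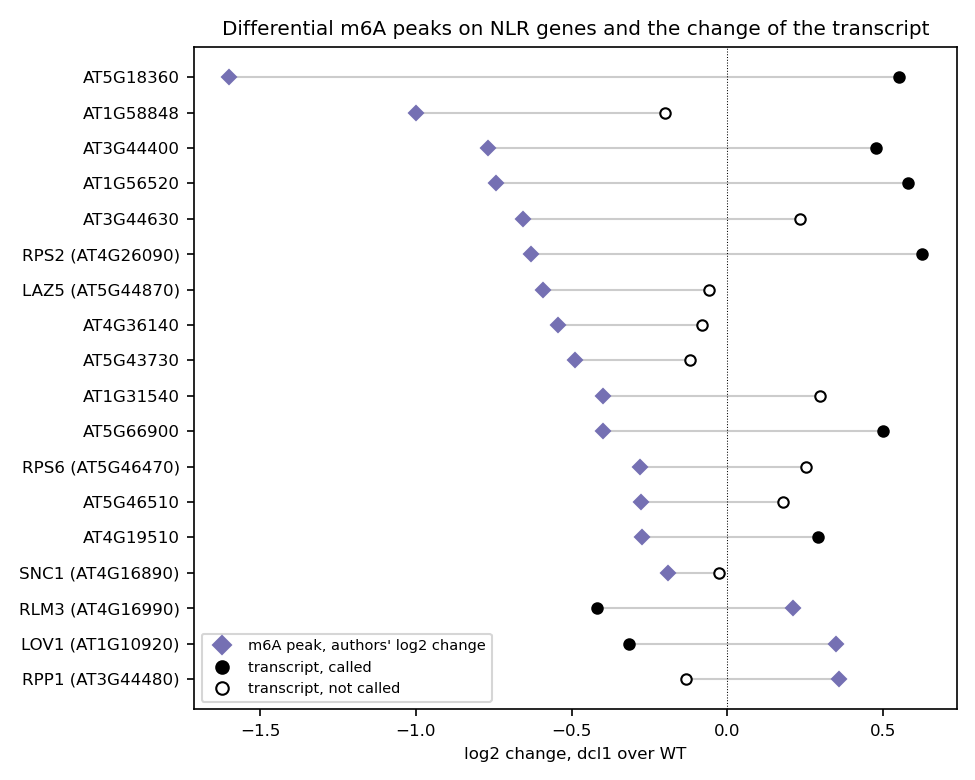
Log2 change of the m6A peak from the authors' table (diamonds) and log2 change of the transcript (circles, filled where it passed the test) for the 18 NLR genes with a differential peak, dcl1 over WT. The filled circles and their diamonds lie on opposite sides of zero for all 8 genes with a changed transcript.

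By overlap, none of the 6 NLR genes that changed at least 2-fold carried a differential peak, where 18 of the 94 tested NLR genes did. With so few genes this is a description alone, and the share among all genes that changed 2-fold was not counted. The 18 genes with a peak were more abundant, with a median of 6.34 FPKM in dcl1 and 5.63 FPKM in WT, against 1.93 FPKM in dcl1 and 1.68 FPKM in WT for the other 126. By the authors' own assignment 18 peaks also belonged to NLR genes, but 5 of these lay outside the gene. The one assigned to AT5G58120 lies on AT5G58110 and was higher (0.24), as was the AT5G58120 transcript. The assignment was to another gene for 8 of the 18 overlapping peaks, among them those on AT5G18360, SNC1 and RPP1.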

How the data were processed

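Values from the 6 input libraries and the differential m6A peaks were used. The submitters' processing notes name the TAIR10 build and the tools HISAT2, StringTie, HOMER, ChIPseeker, fastp and edgeR. Their versions and roles are not given in the sources used here. Per the file headers, the authors' expression table holds FPKM of 24730 genes, with no counts, so depth is unknown. The authors' deposited expression comparison holds a fold ratio of dcl1 over WT with its log2, p-value and q-value, and the authors' deposited peak table a log2 change, p-value and log10 of an FDR per peak. Peak starts in the file count from 0 (1225 of 3117 equal a gene start after adding 1), so 1 was added.

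Genes averaging at least 1 FPKM over both genotypes were tested with limma 3.58.1 (R 4.3.3; lmFit, eBayes with trend) on log2(FPKM + 1), two-sided, dcl1 minus WT, with Benjamini-Hochberg adjustment over all 17925 genes and a threshold of 0.05. The pseudocount makes changes of low genes smaller. The procedure was tested on simulated data. A peak was placed on a gene when at least 1 base was shared. Genes named are the 10 largest rises, all falls, the 5 most abundant genes, genes known by function, miR472 targets, cluster neighbours and partners, and genes with peaks. Some genes below the filter and overlapping loci were named after their values were seen. A listed gene is not reported here. The members and lists were chosen with earlier results of these data known. Symbols come from RefSeq (TAIR10.1), used for names alone. Alternatives were other pseudocounts, filters and scalings, a replicate block, and leaving out each library.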

Additional observations from a re-analysis of the deposited data

How the results depend on the processing

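The count of 28 changed NLR genes was 26 to 28 under both other pseudocounts, no filter, median-ratio scaling and quantile normalisation. With a mean of at least 5 FPKM required, fewer genes were tested and 15 NLR, 9 TIR and 2 CC genes passed. Leaving out 1 library at a time gave 14 to 27 NLR genes (14 without dcl1 replicate 3 or WT replicate 2, 15 without WT replicate 1, 17 without dcl1 replicate 2), 8 to 19 TIR genes, 3 or 4 CC genes, 5 to 8 partner genes and 2 to 4 salicylic acid genes (4 without WT replicate 2, the 2 added being the lower EDS5 and PR5). The median change of the NLR genes was 0.08 to 0.15 with 1 library left out, 0.20 at 5 FPKM and -0.0030 after quantile normalisation. After that scaling CC genes split into 3 higher and 3 lower, and genes of unnamed class into 1 higher and 5 lower.

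In all 13 alternatives, wherever they were tested, 12 of the 28 genes kept their call: ADR1, AT1G12290, AT1G58602, AT1G61190, AT1G66090, AT1G72950, AT2G14080, AT5G41740, AT5G41750, AT5G58120, AT5G66900 and RLM3. None of the 28 changed sign. RPM1 lost its call in 10 alternatives, WRR4 in 9, LOV1 in 8, and SUMM2 and AT1G61300 in 7. CPR1 lost its call in 7 alternatives (adjusted p up to 0.142). Calls were also gained: DAR4 as lower under quantile normalisation (adjusted p = 0.0073), median-ratio scaling (0.020) and the 0.1 FPKM pseudocount (0.0496), AT1G58848 as lower under both scalings (0.016 and 0.036), and AT1G63750 as higher without dcl1 replicate 1 (0.025), without WT replicate 3 (0.031) or with the block (0.018). With 1 library left out, AT1G17600, AT1G31540, AT3G04210 and MIR825 each passed in 1 case.

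Over all 94 tested NLR genes, 22 changed sign under at least 1 alternative, 17 of them under quantile normalisation. All 22 had a change of at most 0.0984 in size in the reported fit, and none had passed. For genes named here, the log2 change after quantile normalisation was -0.026 for AT4G16960, -0.066 for CSA1, -0.017 for AT5G43740, -0.0083 for TTR1, -0.020 for AT5G45060, -0.019 for RPS4, -0.063 for AT5G46450, -0.0051 for AT5G46490 and -0.016 for AT5G66910. With 1 library left out, the change ranged across zero, from -0.045 to 0.064 for AT1G61310, -0.015 to 0.71 for SARD1, -0.63 to 0.19 for BGL2, -0.10 to 0.042 for SNC1, -0.15 to 0.12 for AT4G16920, -0.0086 to 0.12 for AT4G16960, -0.017 to 0.091 for CSA1, -0.028 to 0.19 for AT5G43740, -0.020 to 0.11 for AT5G46450 and -0.067 to 0.25 for AT5G66910. The cause was not tested.

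With the replicate number as a block, 27 NLR genes passed (23 higher, 4 lower), 18 TIR, 4 CC, 8 partner and 2 salicylic acid genes. Deviations from the genotype mean correlated at 0.09, 0.06 and 0.15 between same-numbered libraries. Of the WT libraries, replicate 2 correlated best with dcl1 replicate 1 (0.12). For dcl1 replicates 2 and 3 the best was the WT library of the same number. Correlations this weak cannot settle whether the numbers pair the samples. The peak count on NLR genes was 18 by any overlap and with at least 50% of the peak inside the gene, and 12 at an FDR under 0.05. The authors' assignment also gave 18 peaks, a partly different set, with 12 lower and 6 higher. Since depth is unknown, no counting error is given.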
